A study of Mus musculus with 8 samples.

Results

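Chemoattractant receptors are the surface proteins through which microglia read gradients of chemokines, complement fragments and formylated peptides and move towards their source. Most are G protein-coupled receptors that signal through Gi proteins, whose subunits act on phosphoinositide 3-kinase, phospholipase C and the Rac GTPases behind actin remodeling. A few atypical members bind the same ligands without activating G proteins and act as scavengers or presenters. The 9 receptors described here are the formyl peptide receptors Fpr1 and Fpr2, the anaphylatoxin receptors C5ar1 and C3ar1, the chemokine receptors Ccr1, Ccr2, Ccr7 and Cxcr4, and the atypical receptor Ccrl2. They were chosen by name from their known function and looked up among the 52636 gene identifiers of the count table, where all 9 were found.

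RNA was sequenced from primary microglia of wild-type C57BL/6 mice (C57BL/6N pups in the methods of the study), with 4 libraries from cells given vehicle and 4 from cells given 5 µg/ml LPS, a bacterial lipopolysaccharide sensed by Toll-like receptor 4, for 24 h. The cells came from mixed glial cultures of newborn mice and were shaken off the other glia. Cells of both groups were kept in medium with 10% serum and 10 ng/ml CSF-1, a growth factor that microglia need to survive in culture, and are therefore a culture model rather than microglia taken from a brain. The comparison asks how microglia react to LPS. The labels call the libraries biological replicates but do not say how the cultures were divided. The vehicle libraries 1 to 4 held 22796052, 22595657, 26129375 and 21370879 counts, and the LPS libraries 1 to 4 held 20071921, 22529706, 30604447 and 22581615. LPS replicate 3 stood apart as a whole library. Over all genes with at least 20 counts in a pair, its chi-square per degree of freedom against LPS replicates 1, 2 and 4 was 155, 108 and 115, where counting error alone gives about 1, while the other LPS pairs ranged from 6.98 to 63.6 and the vehicle pairs from 11.0 to 67.0. It also had the lowest TMM factor, 0.70. Receptor calls were the same in the fit without it, and its part was not tested further.

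The label microglia was checked against marker genes. All 12 microglial markers were detected in every library, with a summed level of 11067 ± 1257 CPM (counts per 1e6 counts of the library, with TMM normalization) in vehicle and 2563 ± 149 in LPS-reactive microglia (SD, n = 4). LPS lowered 10 of these 12 markers and raised none, beside 33.8% lower and 30.3% higher of all tested genes. Csf1r was among these 10 and gave the most CPM of the 12 in vehicle, without regard to gene length. In bulk RNA, fewer cells of a type and less RNA per cell cannot be told apart. Several of the receptors are also carried by neutrophils, monocytes, dendritic cells and lymphocytes, so the markers of those cells are given here. The 7 neutrophil markers summed to 89.3 ± 14.5 CPM in vehicle and 975 ± 282 after LPS (SD, n = 4). Of these, S100a9, Ly6g, Retnlg, Mpo and Elane were at 3 counts or fewer in each library. The 2 tested markers, S100a8 and Csf3r, were higher. S100a8 gave 777 CPM of the LPS sum. Csf3r gave 88.9 CPM of the vehicle sum and 199 CPM after LPS (log2 change 1.16, edgeR adjusted p = 1.66e-04). The 5 monocyte markers rose in sum from 16.8 ± 7.43 to 99.2 ± 31.03 CPM (SD, n = 4). Vcan gave the most CPM of them in both groups, Chil3 was at 0 counts in all 8 libraries and Plac8 never exceeded 4. The 7 dendritic cell markers summed to 46.1 ± 15.4 CPM in vehicle and 62.3 ± 26.8 after LPS (SD, n = 4), led by Itgax and by Fscn1 respectively, with Flt3 and Siglech at 3 counts or fewer. Of 4 tested, Fscn1 was higher and Itgax and Zbtb46 were lower. The Fscn1 call was lost with library totals alone, and the Itgax call without vehicle replicate 1 or 3 or LPS replicate 2, 3 or 4. The dendritic cell sum was 22.7 CPM in LPS replicate 3 against 68.9 to 80.4 in the other LPS libraries. It was 68.9 CPM in vehicle replicate 1 against 35.8 to 42.0 in the other vehicle libraries. Fscn1 in LPS replicate 3, at 11.6 CPM, lay within the vehicle range. The 6 lymphocyte markers summed to at most 1.09 CPM in any library, and Cd3e, Cd3g and Ncr1 were at 0 counts. Their sum went from 0.239 ± 0.114 to 0.894 ± 0.158 CPM (SD, n = 4). Ms4a1, the only member tested, was higher (log2 change 1.91, edgeR adjusted p = 3.66e-03). Marker sums of further cell types moved as well. The 6 border macrophage markers went from 719 ± 227 to 60.4 ± 13.7 CPM, led by Mrc1 in both groups, with Lyve1 at 3 counts or fewer. Of 4 tested, 3 were lower, but Cbr2 was higher, from 1.30 to 6.10 CPM (log2 change 2.22, edgeR adjusted p = 7.60e-03). The 8 oligodendrocyte lineage markers went from 123 ± 22.2 to 20.4 ± 2.39 CPM, led by Mbp. The 5 endothelial markers went from 52.1 ± 22.3 to 225 ± 42.4 CPM, led by Flt1, with Cldn5 at 0 counts. The 7 astrocyte markers went from 36.8 ± 11.8 to 64.5 ± 39.3 CPM, with 1 higher and 3 lower of 7 tested. Gja1, the gene that rose, gave 48.6 CPM of the LPS sum, Aqp4, Aldh1l1 and Gfap were lower (the Gfap call was lost without vehicle replicate 2 or 4 or LPS replicate 2 or 4), and LPS replicate 1 had a sum of 123 CPM against 40.6 to 48.8 in the other LPS libraries. The 6 neuron markers went from 14.4 ± 5.50 to 5.22 ± 2.99 CPM, led by Tubb3 in vehicle and Gad1 after LPS, and the 5 fibroblast markers from 1.78 ± 1.43 to 9.89 ± 7.68 CPM, led by Pdgfrb and Dcn respectively, with Col1a1 and Col1a2 at 3 counts or fewer in the LPS libraries (SD, n = 4). LPS replicate 3 had a fibroblast sum of 21.3 CPM against 5.30 to 7.52 in the other LPS libraries, and Col1a1 went from 65 to 7 counts and Col1a2 from 48 to 2. The part of other cells in the receptor changes was not tested.

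LPS changed most of the receptor genes, and in opposite directions. Fpr1, Fpr2, Ccrl2, Ccr1 and C3ar1 were higher, Cxcr4 was lower, and C5ar1 and Ccr2 did not pass the test. Of the 9 receptors, 8 passed the filter on low counts, and 6 of these 8 had an adjusted p under 0.05 in the edgeR quasi-likelihood test across all genes. LPS affected a large part of the transcriptome, since 64.1% of the 13847 tested genes passed that threshold, 30.3% higher and 33.8% lower. The share of receptors called is near that background. With 5 higher and 1 lower, their median log2 change was 2.15, beside -0.11 over all tested genes. Over 15 alternative fits that median ranged from 1.44 with library totals alone to 3.49 with DESeq2, which also fitted Ccr7, and was 1.63 without LPS replicate 3. Library totals without TMM factors gave 4 higher and 2 lower, because C3ar1 then lost its call and C5ar1 gained one. The normalized counts of 5 of the 8 tested receptors did not overlap between the groups, against 60.2% of all tested genes.

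**Figure D1:**
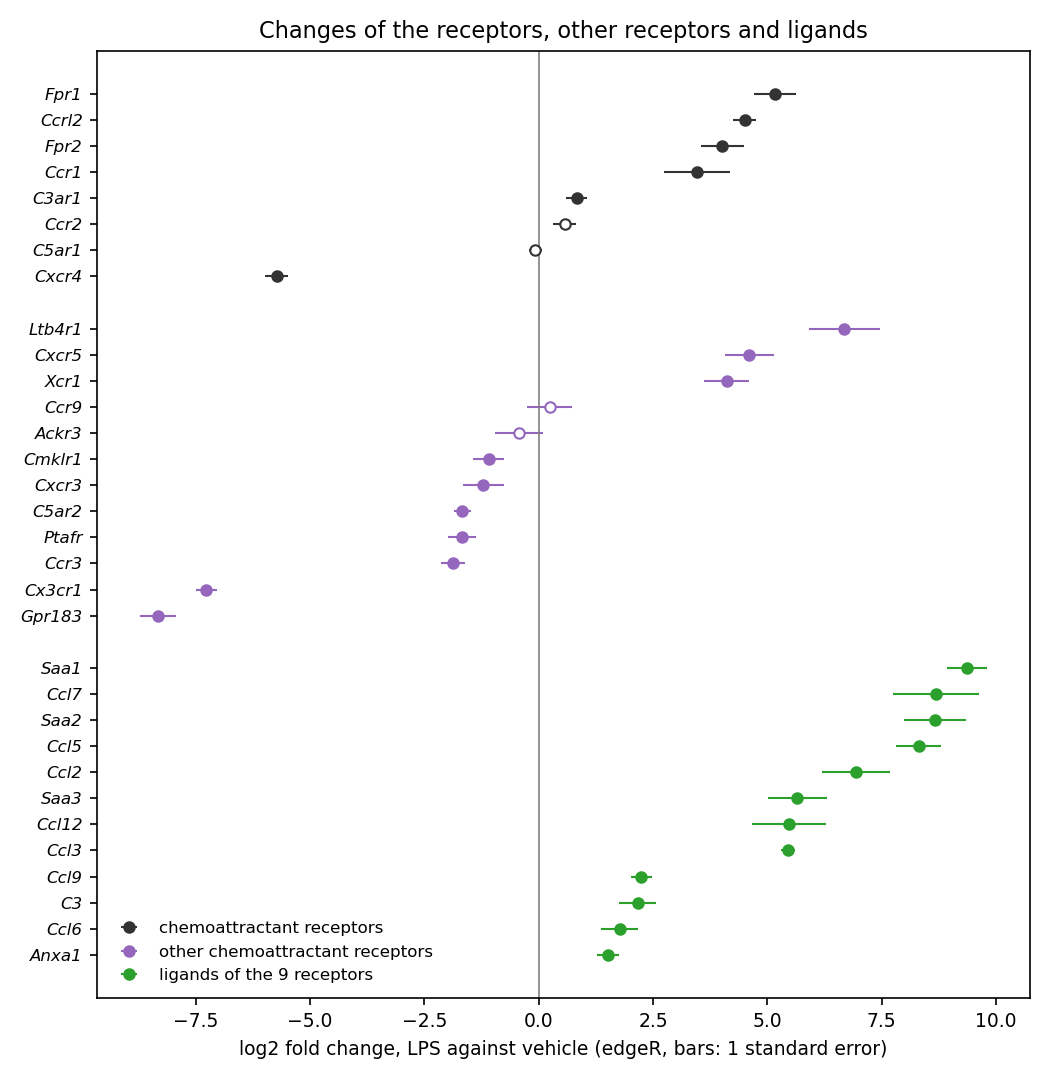
Log2 fold change in LPS-reactive microglia against vehicle (n = 4 libraries each) for the tested members of 3 gene lists, from the edgeR fit across all genes. Points are estimates, bars are 1 standard error, and filled points have an adjusted p under 0.05. Among the 8 tested receptors Fpr1 stands highest at 5.16 and Cxcr4 lowest at -5.72, and all 12 tested ligands lie to the right of 0. The estimates of Saa1, Saa2 and Ltb4r1, with 3 vehicle counts or fewer in all, depend on the prior count of the fit.

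Fpr1 had the largest rise of the tested receptors, and its neighbor Fpr2 the third largest. Fpr1 (ENSMUSG00000045551, chr17:17876471-17883940, minus strand, GRCm38) recognizes N-formylated peptides released by bacteria and damaged mitochondria. Its level was 67.5, 19.9, 42.6 and 17.4 CPM in vehicle replicates 1 to 4 and 1430, 1217, 1421 and 1204 CPM in LPS replicates 1 to 4. The vehicle libraries spread 3.89-fold from lowest to highest, with replicates 1 and 3 above replicates 2 and 4, whereas the LPS libraries lay close together and far above every vehicle library. Fpr1 rose 35.8-fold, a log2 change of 5.16 ± 0.45 (SE, n = 4 per group, edgeR adjusted p = 9.45e-06). Fpr2 (ENSMUSG00000052270, chr17:17887824-17893952, plus strand) binds formyl peptides as well as annexin A1 and serum amyloid A. It measured 31.2, 9.51, 20.6 and 6.04 CPM in vehicle and 296, 230, 323 and 241 CPM after LPS. The vehicle libraries held the same order as for Fpr1, and the groups did not overlap. Fpr2 rose 16.2-fold, or 4.02 ± 0.47 on the log2 scale (SE, n = 4 per group, edgeR adjusted p = 5.92e-05).

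Fpr1 and Fpr2 lie head to head on chromosome 17, 3.88 kb apart. Their ratio within a library does not depend on how libraries are scaled, and it moved as well. Vehicle libraries held 2.28 counts of Fpr1 for each count of Fpr2, and LPS libraries held 4.87, as geometric means. The log2 ratio was 1.10 higher after LPS (two-sided exact permutation test, n = 4 per group, p = 0.0286, adjusted p = 0.0343 over 6 receptor pairs), with every LPS library above every vehicle library. The value 0.0286 is the smallest p that 4 against 4 libraries allow. Counts of Fpr2 are uncertain, because 31.5% of its windows of 50 bases also occur in transcripts of Fpr3, Gm5966 or Fpr1. Reads from these windows could not be placed uniquely. Of the 1275 windows of Fpr1, 1 occurs in another gene, Fpr2. The exons of Fpr2 also share 48 bases with Fpr3 on the same strand, and Fpr3 itself had 2 counts in vehicle and 18 after LPS. Of the other neighbors, Has1, a hyaluronan synthase gene 21.3 kb from Fpr1, rose by 5.96 ± 0.88 on the log2 scale (SE, n = 4 per group, edgeR adjusted p = 2.48e-04) from only 12 vehicle counts in all, and by 7.48 without vehicle replicate 1. The formyl peptide receptor genes Fpr-rs3, Fpr-rs4, Fpr-rs6 and Fpr-rs7 had 0 counts in all 8 libraries.

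The anaphylatoxin receptors were the most abundant of the 9 in vehicle, and their changes were small beside those of the formyl peptide receptors. C3ar1 (ENSMUSG00000040552, chr6:122847138-122856161, minus strand) is the receptor of the C3 fragment C3a. It measured 1806, 2487, 2040 and 2179 CPM in vehicle and 2405, 3883, 5187 and 3704 CPM after LPS. LPS replicate 1 fell within the vehicle range and replicate 3 was the highest, so the groups overlapped. The log2 change was 0.83 ± 0.23 (SE, n = 4 per group, edgeR adjusted p = 9.65e-03). The call was kept with RLE and upper quartile normalization (0.89 and 0.67, edgeR adjusted p = 6.79e-03 and 0.0178) and lost with library totals alone (0.13, edgeR adjusted p = 0.545).

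C5ar1 (ENSMUSG00000049130, chr7:16246743-16259540, minus strand) is the main receptor of C5a, among the strongest leukocyte attractants. Its level was 430, 497, 523 and 468 CPM in vehicle and 550, 454, 373 and 451 CPM in LPS-reactive microglia. The groups overlapped, with LPS replicate 1 above and LPS replicate 3 below all vehicle libraries. The log2 difference was -0.07 with a 95% interval of -0.38 to 0.24 (n = 4 per group, edgeR adjusted p = 0.676), and it turned to 0.04 without vehicle replicate 3 and 0.02 without LPS replicate 3. With library totals alone it was -0.73 (edgeR adjusted p = 2.55e-03), so whether C5ar1 was lower depends on the scaling.

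C5ar2, 2.59 kb from C5ar1, encodes a C5a receptor that does not couple to G proteins. It fell from 13.5 ± 0.65 to 4.21 ± 1.05 CPM (SD, n = 4), a log2 change of -1.67 ± 0.18 (SE, edgeR adjusted p = 3.86e-05). The ratio of C5ar1 to C5ar2 counts, which no scaling affects, went from 35.5 in vehicle to 109 after LPS, a log2 difference of 1.62 (two-sided exact permutation test, n = 4 per group, p = 0.0286, adjusted p = 0.0343). The ratio of C5ar1 to C3ar1 went from 0.226 to 0.124, a log2 difference of -0.87 that did not pass the test (two-sided exact permutation test, n = 4 per group, p = 0.0857, adjusted p = 0.0857), with LPS replicate 1 inside the vehicle range.

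Ccrl2 (ENSMUSG00000043953, chr9:111054486-111057519, minus strand) is an atypical receptor that binds chemerin and presents it to the signaling receptor Cmklr1 on neighboring cells. Its level was 14.1, 15.4, 22.2 and 12.96 CPM in vehicle and 307, 319, 507 and 333 CPM after LPS. Replicate 3 was the highest in each group, and the groups were far apart. The increase was 22.6-fold, or 4.50 ± 0.25 on the log2 scale (SE, n = 4 per group, edgeR adjusted p = 5.82e-07). Cmklr1 moved the other way, from 134 ± 30.7 to 62.7 ± 31.1 CPM (SD, n = 4), a log2 change of -1.10 ± 0.33 (SE, edgeR adjusted p = 0.0161). The Cmklr1 call was lost without vehicle replicate 1 (log2 change -1.01, edgeR adjusted p = 0.0542) and without vehicle replicate 3 (-0.89, edgeR adjusted p = 0.0654). Vehicle libraries thus held 8.27 counts of Cmklr1 for each count of Ccrl2, while LPS libraries held 6.31 counts of Ccrl2 for each of Cmklr1. The log2 ratio differed by 5.71 (two-sided exact permutation test, n = 4 per group, p = 0.0286, adjusted p = 0.0343).

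Ccr1 (ENSMUSG00000025804, chr9:123962124-123968692, minus strand) binds several inflammatory CC chemokines, among them Ccl3, Ccl5, Ccl6 and Ccl9. It measured 20.2, 15.4, 53.9 and 8.84 CPM in vehicle and 126, 204, 635 and 118 CPM after LPS. Replicate 3 was the highest in both groups, and the LPS libraries spread 5.37-fold from lowest to highest, the vehicle libraries 6.10-fold. The groups did not overlap, and Ccr1 rose 11.0-fold, or 3.46 ± 0.72 on the log2 scale (SE, n = 4 per group, edgeR adjusted p = 2.00e-03). The log2 change was 4.22 without vehicle replicate 3 and 2.60 without LPS replicate 3. Between libraries of the same replicate number the log2 differences were 2.64, 3.72, 3.56 and 3.73, closer together than the libraries of either group.

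Ccr2 (ENSMUSG00000049103, chr9:124101950-124113557, plus strand), the receptor of Ccl2, Ccl7 and Ccl12 that marks inflammatory monocytes, was near the lower end of detection. Its counts were 75, 62, 96 and 50 in vehicle and 42, 72, 90 and 67 after LPS, or 2.63, 2.14, 3.04 and 1.78 CPM against 2.51, 3.92, 4.20 and 3.62 CPM. LPS replicate 1 lay within the vehicle range and the other LPS libraries above it. The log2 difference of 0.57 ± 0.25 (SE, n = 4 per group, 95% interval 0.01 to 1.13) did not pass the threshold (edgeR adjusted p = 0.0692). It passed with DESeq2 (0.62, adjusted p = 0.0452), without vehicle replicate 3 (0.76, edgeR adjusted p = 0.0280) and without LPS replicate 1 (0.71, edgeR adjusted p = 0.0285), and changed sign with library totals alone (-0.11). Of the 50-base windows of Ccr2, 1.91% occur in transcripts of other genes.

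Within libraries, the balance between Ccr1 and Ccr2, both on chromosome 9, changed. For each count of Ccr2 there were 8.30 counts of Ccr1 in vehicle and 59.4 after LPS, a log2 difference of 2.84 (two-sided exact permutation test, n = 4 per group, p = 0.0286, adjusted p = 0.0343). Of the neighbors in this receptor cluster, Xcr1, 100 kb from Ccr1, rose by 4.11 ± 0.49 (3.50 without LPS replicate 3), and Ccr3, 70.3 kb from Ccr2, changed by -1.86 ± 0.26 (log2, SE, n = 4 per group, edgeR adjusted p = 6.54e-05 and 1.87e-04). Ccr1l1, 8.55 kb from Ccr1, went from 60 counts to 8 and was not tested.

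Cxcr4 (ENSMUSG00000045382, chr1:128588199-128592293, minus strand), the receptor of Cxcl12 that retains leukocytes and guides precursor cells, was the receptor that fell. It measured 130, 93.7, 98.4 and 97.9 CPM in vehicle and 1.14, 2.34, 1.68 and 2.76 CPM after LPS. In counts, that is 3712, 2707, 3102 and 2756 against 19, 43, 36 and 51, and the groups did not overlap. The fall was 52.8-fold, a log2 change of -5.72 ± 0.25 (SE, n = 4 per group, edgeR adjusted p = 1.94e-07), and ranked 77 among the falls of all 13847 tested genes. Ackr3, an atypical receptor that removes Cxcl12, was low in both groups (0.817 ± 0.371 and 0.609 ± 0.288 CPM, SD, n = 4), and its log2 change of -0.43 ± 0.52 did not pass the test (SE, edgeR adjusted p = 0.487). Counts of Cxcr4 for each count of Ackr3 went from 140 to 3.40, a log2 difference of -5.36 (two-sided exact permutation test, n = 4 per group, p = 0.0286, adjusted p = 0.0343).

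Ccr7 (ENSMUSG00000037944, chr11:99144196-99155077, minus strand), which guides activated dendritic cells to lymph nodes along Ccl19 and Ccl21, was not detected in vehicle and barely after LPS. It had 0 counts in each vehicle library and 5, 14, 11 and 9 counts in the LPS libraries. These 39 of 95787689 LPS counts, set against a floor of 3 counts in the 92891963 vehicle counts together, make Ccr7 at least 12.6-fold higher after LPS. The floor covers counting error only. No LPS library overlapped the vehicle group, and an exact permutation test on CPM gave the smallest possible two-sided p of 0.0286 (n = 4 per group). Ccr7 did not pass the filter on low counts and is not in the counts of called genes. It was called higher by DESeq2 (log2 change 6.41, adjusted p = 6.40e-07) and without the filter (6.63, edgeR adjusted p = 1.81e-04), where the estimates rest on no vehicle count. The scavenging receptor of the same ligands, Ackr4, had 10 counts or fewer in every library.

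**Figure D2:**
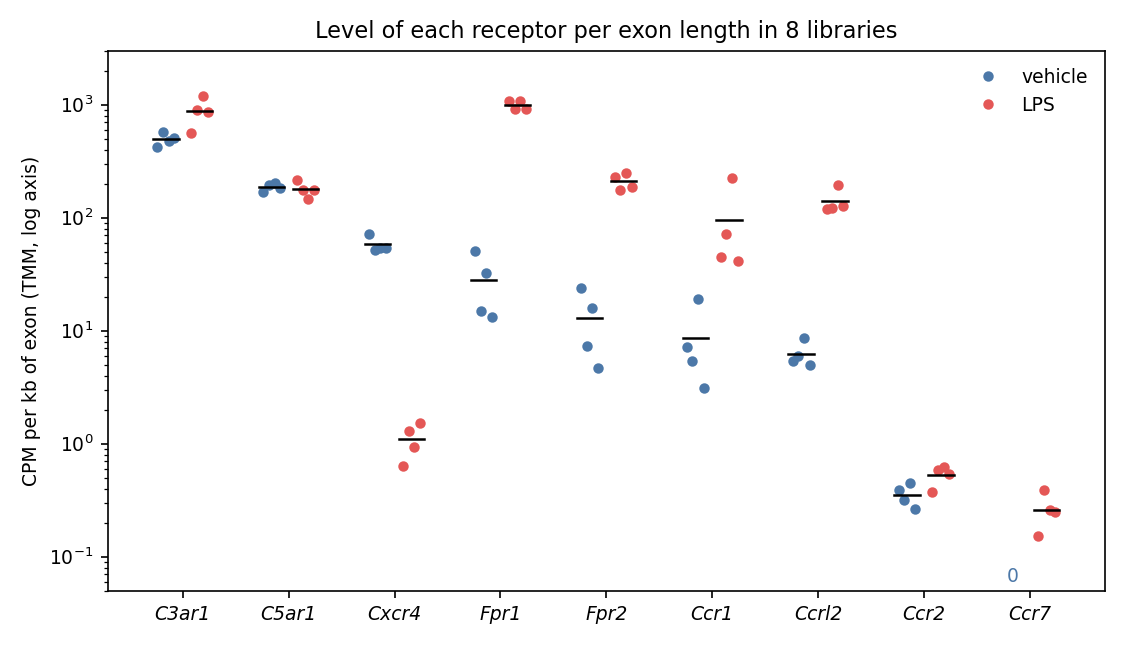
Level of the 9 receptors in CPM per kb of merged exons, on a log axis, in 4 vehicle and 4 LPS libraries. Points are libraries and black bars are means. C3ar1 leads in vehicle with a mean of 494, Fpr1 leads after LPS with 995, Cxcr4 goes from 58.1 to 1.09, and Ccr7 is at 0 in vehicle.

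Levels of different genes can be compared only per length. Per kb of merged exons, the vehicle levels ran from C3ar1 at 494 ± 66.1 CPM per kb to C5ar1 at 187 ± 15.6, Cxcr4 at 58.1 ± 9.28, Fpr1 at 27.8 ± 17.7, Fpr2 at 12.99 ± 8.81, Ccr1 at 8.68 ± 7.09, Ccrl2 at 6.23 ± 1.59 and Ccr2 at 0.355 ± 0.082, with Ccr7 at 0 (SD, n = 4). The library ranges of Fpr1 and Fpr2, of Fpr2 and Ccr1, and of Ccr1 and Ccrl2 overlapped. Within libraries, Fpr1 was above Fpr2 in 4 of 4, Fpr2 above Ccr1 in 3 of 4 and Ccr1 above Ccrl2 in 2 of 4. After LPS the order was Fpr1 at 995 ± 93.8, C3ar1 at 882 ± 264, Fpr2 at 210 ± 34.2, C5ar1 at 178 ± 28.2, Ccrl2 at 141 ± 36.4, Ccr1 at 95.6 ± 86.9, Cxcr4 at 1.09 ± 0.40, Ccr2 at 0.527 ± 0.109 and Ccr7 at 0.261 ± 0.096 CPM per kb (SD, n = 4). Here the ranges overlapped for Fpr1 and C3ar1, Fpr2 and C5ar1, C5ar1 and Ccrl2, Ccrl2 and Ccr1, and Ccr2 and Ccr7. Within LPS libraries, Fpr2 was above C5ar1 and Ccr2 above Ccr7 in 4 of 4, and the order of each of the other 3 pairs held in 3 of 4. The anaphylatoxin receptors C3ar1 and C5ar1 made up 62.0% and 23.5% of the summed level of the 9 receptors in vehicle. After LPS, Fpr1 and C3ar1 made up 40.3% and 34.8%, Fpr2 8.45% and C5ar1 7.32%.

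**Figure D3:**
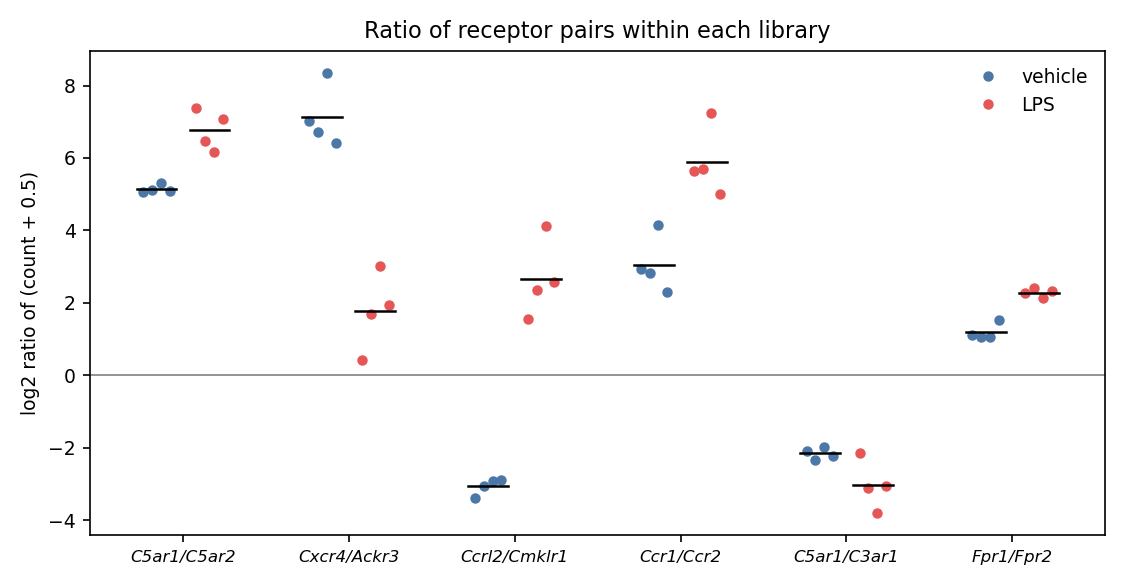
Log2 ratio of the counts (plus 0.5) of 6 receptor pairs within each of 4 vehicle and 4 LPS libraries. Points are libraries and black bars are group means. The groups are apart for 5 pairs and overlap for C5ar1/C3ar1, where the group difference is -0.87.

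Most ligand genes of the 9 receptors were higher after LPS. Of 18 such genes, 12 were tested and all 12 were higher, beside 30.3% of all tested genes, with a median log2 change of 5.56 beside -0.11. That median was 6.23 without vehicle replicate 3 and 4.90 with library totals alone, the extremes of 15 alternative fits. Saa1 and Saa2, with 3 vehicle counts or fewer in all, passed the filter through their LPS counts. With at least 10 counts in every library, 10 were tested and all 10 were higher, with a median of 5.40. Saa3, a serum amyloid A, went from 1545, 239, 649 and 280 CPM in vehicle to 32510, 37012, 33159 and 33944 CPM after LPS, a log2 change of 5.65 ± 0.64 (SE, n = 4 per group, edgeR adjusted p = 4.54e-05), and 6.47 without vehicle replicate 1. Its vehicle libraries 1 and 3 were the highest, as for Fpr1 and Fpr2 and for the ligand genes C3, Ccl5, Ccl6, Ccl9 and Anxa1. Genes that are neither receptors nor ligands, such as Rac2 and Rgs14, had the same 2 libraries highest. Saa1 had 3 vehicle counts against 1543 after LPS, 499-fold relative to library totals with a 95% counting interval of 170 to 2421. Of these 3 vehicle counts 2 came from replicate 3, and the edgeR log2 change went from 9.36 to 10.25 without it. Saa2 had 0 vehicle counts and 161 after LPS, at least 52.0-fold higher. Ccl7, a ligand of Ccr2, rose by 8.68 ± 0.93 (SE, n = 4 per group, edgeR adjusted p = 3.25e-05) and by 10.01 without vehicle replicate 3. Ccl2, the other main ligand of Ccr2, rose by 6.93 ± 0.74 (SE, n = 4 per group, edgeR adjusted p = 3.11e-05) and by 7.89 without that library.

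The smallest changes among the 12 were those of Anxa1 (1.51 ± 0.24), Ccl6 (1.77 ± 0.40) and C3 (2.16 ± 0.40, all log2, SE, n = 4 per group). Ccl19, Ccl21a, Rarres2 and Hc, the ligands of Ccr7, the chemerin gene and the C5 gene, were at 3 counts or fewer in every library. Cxcl12, the ligand of Cxcr4, had between 1 and 9 counts per library and Camp up to 50, and neither was tested. Ccl2, Ccl3, Ccl6, Ccl7 and Ccl12 shared with Ccr1 and Ccrl2 a highest value in replicate 3 of both groups. Ccl2 measured 70.1 CPM in vehicle replicate 3 against 9.73 to 22.0 in the other vehicle libraries, and 6139 CPM in LPS replicate 3 against 2648 to 2868 in the others.

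The other chemoattractant receptors formed a list of 30 genes. Of these 12 were tested, 7 were lower and 3 higher, with a median log2 change of -1.15, where 33.8% of all tested genes were lower and 30.3% higher. With at least 10 counts in every library 5 were lower and 0 higher of 5 tested, and without vehicle replicate 3 it was 5 lower and 3 higher of 12. The median was -0.02 with DESeq2, which fitted 23 of the 30 (7 lower, 4 higher), and -1.82 with library totals alone. The largest falls were those of Gpr183, a receptor of oxysterols (-8.32 ± 0.40), the fractalkine receptor Cx3cr1 (-7.26 ± 0.22) and Ccr3 (-1.86 ± 0.26), all log2 with SE and n = 4 per group. Cx3cr1, abundant in resting microglia, went from 989 ± 211 to 6.43 ± 0.75 CPM (SD, n = 4), and Gpr183 had 9 counts left in the LPS libraries together. The rises were those of Cxcr5 (4.60 ± 0.53), Xcr1 (4.11 ± 0.49) and the leukotriene B4 receptor Ltb4r1, all from few vehicle counts. Cxcr5 had 22 vehicle counts in all against 336 after LPS, and Xcr1 58 against 681. Ltb4r1 had 2 vehicle counts against 171, 82.9-fold relative to library totals with a 95% counting interval of 22.6 to 690. These 2 vehicle counts of Ltb4r1 came from replicate 3, and its edgeR log2 change went from 6.68 to 8.73 without that library. Another 11 of the 30, including Cxcr1 and Cxcr2, the neutrophil receptors of CXC chemokines, were at 3 counts or fewer in every library.

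Genes downstream of the receptors were counted as well. Of 16 genes of G protein subunits and their effectors, 15 were tested, 10 were higher and 2 lower, beside 30.3% and 33.8% of all tested genes, with a median log2 change of 0.61 beside -0.11. With library totals alone this became 5 higher, 4 lower and a median of -0.07. Rac2, a GTPase of leukocyte migration, rose by 3.03 ± 0.19, Vav1, an exchange factor for Rac, by 1.79 ± 0.12 and Pik3r5, an adaptor of phosphoinositide 3-kinase gamma, by 1.39 ± 0.21, while Plcb2 changed by -1.64 ± 0.40 and Gng2 by -0.87 ± 0.19 (log2, SE, n = 4 per group). Of 13 genes that shut off receptor signaling, namely arrestins, receptor kinases and RGS proteins, 6 were higher and 5 lower, beside the same shares of all tested genes, with a median of 0.42. With library totals alone 2 were higher, 6 lower and the median was -0.33. The median was also negative without LPS replicate 3 (-0.25, 6 higher and 6 lower), and it was 0.12 with the replicate block (6 higher and 6 lower). Rgs14 rose by 2.38 ± 0.25, Rgs16 by 1.52 ± 0.42 (not called with library totals alone) and Grk5 by 1.38 ± 0.16. Rgs18 changed by -5.01 ± 0.83 (-4.32 without vehicle replicate 3), Rgs2 by -4.63 ± 0.38 and Rgs10 by -3.50 ± 0.16 (log2, SE, n = 4 per group).

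For each tested receptor, the genes with the most similar pattern over the 8 libraries were found among 10656 genes by the root mean square difference of centered log2 CPM. They were Ndrg1 (0.17) and Adm (0.25) for Fpr1, H2-Ab1 (0.22) and Fas (0.33) for Fpr2, and Il15ra (0.20) and Gm44148 (0.21) for Ccrl2. For Ccr1 the nearest were Treml2 (0.51) and Trim30c (0.53), a looser match than for any other receptor. Cxcr4 was followed by Deptor (0.29) and Arhgap19 (0.36), C3ar1 by Mcm9 (0.06) and Nmrk1 (0.07), C5ar1 by Txn2 (0.07) and Coq7 (0.08), and Ccr2 by Tagap (0.14) and Sash3 (0.14). Neighboring genes outside the receptor clusters gave mixed results. Lrrfip2, 60.1 kb from Ccrl2, rose by 1.73 ± 0.13, Foxj2, 1.77 kb from C3ar1, by 0.39 ± 0.13, and Inafm1, 12.5 kb from C5ar1, changed by -1.04 ± 0.14 (log2, SE, n = 4 per group). The Foxj2 call was lost with upper quartile normalization (0.23, edgeR adjusted p = 0.0956) and without LPS replicate 2 (0.37, edgeR adjusted p = 0.0522), and with library totals alone it was called lower (-0.29, edgeR adjusted p = 0.0459). Both neighbors of Ccr7, Tns4 and Smarce1, were lower (-1.91 ± 0.46 and -0.63 ± 0.12, log2, SE, n = 4 per group). Dars near Cxcr4 and Necap1 near C3ar1 did not pass the test (-0.27 and 0.17, edgeR adjusted p = 0.123 and 0.471), while with library totals alone both were called lower (-0.96 and -0.53) and with upper quartile normalization Dars was (-0.43).

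Promoter sequence is shown for Fpr1 and Fpr2, which rose side by side, and for Ccrl2 and Ccr1, which rose as well. RefSeq windows on GRCm38.p6, from 250 bases before to 50 after a transcription start, were matched for 8 of the 9 receptors, Ccr7 not among them. Both strands were searched for an NF-kB motif, an interferon response element (GAAA, any 2 bases, GAAA), AP-1 (TGANTCA), C/EBP (TTGCNNAA) and PU.1 (GAGGAA). Of all 32851 windows in the table, 8.46%, 3.44%, 7.81%, 10.8% and 28.3% held them, in that order. The NF-kB motif was found in Ccr1 and in 1 of the 3 windows of Ccrl2, AP-1 in C3ar1, and PU.1 in Ccr1 and Fpr2, while the windows of Fpr1, Cxcr4, C5ar1 and Ccr2 held none of the 5. A match is a description of the letters, and binding was not measured. The 250 bases before the start are printed 5′ to 3′ on the strand of the gene, with matches in capitals, for Fpr1 (chr17:17883940-17884189, minus strand), Fpr2 (chr17:17887574-17887823, plus strand, where the capitals are PU.1 on the opposite strand), Ccrl2 (chr9:111057519-111057768, minus strand, NF-kB 56 bases before the start) and Ccr1 (chr9:123968693-123968942, minus strand, PU.1 and, 74 bases before the start, NF-kB).
Fpr1: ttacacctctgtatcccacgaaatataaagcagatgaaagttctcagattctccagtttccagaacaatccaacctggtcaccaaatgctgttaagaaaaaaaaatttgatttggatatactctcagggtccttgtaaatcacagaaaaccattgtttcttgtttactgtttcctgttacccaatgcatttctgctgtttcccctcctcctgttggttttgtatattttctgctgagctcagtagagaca
Fpr2: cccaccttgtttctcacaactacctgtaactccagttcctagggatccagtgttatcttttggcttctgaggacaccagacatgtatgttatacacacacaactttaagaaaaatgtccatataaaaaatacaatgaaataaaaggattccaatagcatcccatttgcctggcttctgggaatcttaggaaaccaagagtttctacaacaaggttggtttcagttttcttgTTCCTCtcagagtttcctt
Ccrl2: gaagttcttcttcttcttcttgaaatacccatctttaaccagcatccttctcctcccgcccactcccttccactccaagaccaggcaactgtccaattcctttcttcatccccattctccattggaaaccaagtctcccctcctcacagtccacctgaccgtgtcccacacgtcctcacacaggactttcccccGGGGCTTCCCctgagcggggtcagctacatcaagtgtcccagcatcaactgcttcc
Ccr1: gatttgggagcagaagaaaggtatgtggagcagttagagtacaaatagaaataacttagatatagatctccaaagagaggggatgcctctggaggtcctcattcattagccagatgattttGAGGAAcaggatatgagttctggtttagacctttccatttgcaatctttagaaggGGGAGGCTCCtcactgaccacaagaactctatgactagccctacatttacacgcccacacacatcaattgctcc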

How the data were processed

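RNA of 8 libraries, 4 per group, was measured by single-end sequencing. The authors aligned reads to GRCm38 with GSNAP, counted uniquely aligned reads per gene with HTSeqGenie and deposited raw counts, which were used as deposited. The annotation release and the use of read strand are not given in the sources used here, and labels and methods name different kits and sequencers. Symbols and positions came from GENCODE vM21, which matched 52489 of 52636 identifiers. Totals ranged from 20071921 to 30604447 counts. Counting intervals and floors cover counting error only.

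Changes were tested with edgeR 4.0.16 in R 4.3.3 (TMM, filterByExpr with minimum count 10 and minimum total 15, quasi-likelihood test, two-sided, Benjamini-Hochberg over all tested genes, threshold 0.05). TMM factors were 1.21 to 1.32 in vehicle and 0.70 to 0.83 in LPS libraries. Log2 ratios within a library used a pseudocount of 0.5 and a two-sided exact permutation test over 70 divisions into 4 and 4 (p as 2 times the smaller tail), adjusted over 6 of 7 pairs whose genes passed the filter. Python 3.11.15 (scipy 1.17.1, pandas 2.3.3, numpy 2.4.6, matplotlib 3.10.9) made the tables and plots. Simulated data with known changes served to test the fits.

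The receptors, lists, pairs and alternatives were chosen with earlier results of these data known. Named genes are the 9 receptors, the 3 largest rises and 3 largest falls of each list among called genes, the ligands, decoys and nearest protein-coding neighbors described, and the 2 genes most like each receptor (among genes averaging at least 1 on the log2 CPM scale, prior count 2). Further genes in the text were named after their values were seen. A planned pair and a planned list gene are not reported here, and the counts, median and adjustment are given without them.

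The labels do not say what a shared replicate number means. Over 8010 genes averaging 3 or more on the log2 CPM scale, deviations from the group means correlated between same-numbered libraries with r of 0.373, 0.196, 0.171 and 0.108. All exceed 0.1, so the numbers were treated as pairs in an alternative with a replicate block. For replicates 2 and 4 the exchanged pairs correlated about as well (0.146 and 0.137). The other alternatives were DESeq2 1.42.0, RLE and upper quartile normalization, no filter, at least 10 counts in every library, an adjusted p of 0.01, pseudocounts of 1 and 0.1, the longest transcript as length, leaving out each library and, added after seeing the data, library totals without TMM factors.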

Additional observations from a re-analysis of the deposited data

Results flagged for a closer look

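Of 16 groups of 4 libraries checked, those of the 8 tested receptors in both groups, 2 held a library far from the other 3 by the share of the range, on the log2 CPM scale, taken up by the gap to its nearest neighbor, where chance gives about 1 in 20. Ccrl2 in LPS replicate 3 was at 507 CPM against 307 to 333 in the other LPS libraries (0.840 on the log2 scale, 0.872 on the CPM scale). Cxcr4 in vehicle replicate 1 was at 130 CPM against 93.7 to 98.4 in the other vehicle libraries (0.849 and 0.870). On the CPM scale Ccr1 in LPS replicate 3 also passed, at 635 CPM against 118 to 204 (0.835). Each library still lay on its own side of the comparison, and the cause was not tested.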

How the results depend on the processing

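Library totals without TMM factors, chosen after seeing the data, shifted the log2 changes of all tested genes by a median of -0.68, and upper quartile normalization by -0.16. Of called genes, 47.2% were higher with TMM, 39.6% with upper quartile normalization and 19.0% with library totals. With library totals C3ar1 was not called (0.13), C5ar1 was called lower (-0.73), Ccr2 (-0.11) changed sign without a call, and Foxj2 (-0.29) was called lower in place of higher. The uncalled Necap1 was at -0.0010 with upper quartile normalization, -0.53 with library totals, -0.055 without LPS replicate 3 and 0.30 without LPS replicate 1. DESeq2 called Ccr2 (0.62) and Ccr7 (6.41), so 8 of 9 receptors, and edgeR without the filter called 7. Over left-out libraries C5ar1 ranged from -0.16 to 0.042 and Ccr2 from 0.47 to 0.76. Fpr1, Fpr2, Ccrl2, Ccr1 and Cxcr4 kept direction and call in all 16 alternatives. The replicate block changed no receptor call. Of the other chemoattractant receptors, 5 in place of 10 were called with at least 10 counts in every library, fewer genes being tested. Ratios kept their direction, but 3 against 4 libraries (smallest p 0.0571) or the replicate block with sign flips of 4 pairs (smallest p 0.125) cannot pass the threshold. Differences between group means of the log2 ratio, with their ranges over left-out libraries, were 1.62 (1.42 to 1.83) for C5ar1/C5ar2, -5.36 (-5.78 to -4.92) for Cxcr4/Ackr3 and 5.71 (5.22 to 6.07) for Ccrl2/Cmklr1. They were 2.84 (2.39 to 3.20) for Ccr1/Ccr2, 1.10 (1.05 to 1.21) for Fpr1/Fpr2 and -0.87 (-1.17 to -0.61) for C5ar1/C3ar1. By library totals, levels per kb in vehicle were 626 for C3ar1, 236 for C5ar1, 73.3 for Cxcr4, 7.82 for Ccrl2 and 0.446 for Ccr2, and after LPS 786 for Fpr1, 165 for Fpr2, 142 for C5ar1 and 0.414 for Ccr2, with the order of the 9 receptors as before. The cause of these differences was not tested. Depth limits Ccr7 to a lower bound.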
